A study of Mus musculus with 8 samples.

Results

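The ventromedial hypothalamus (VMH) was compared with the lateral hypothalamus (LH) by the genes expressed in each. The comparison used 4 of the 8 arrays of the series, namely VMH1 and VMH2 against LH1 and LH2, chosen by their labels. The other 4 arrays held the arcuate nucleus (Arc) and the dorsomedial hypothalamus (DMH) and served only to place a value. The tissue was from untreated female mice, 3 months old, of the inbred strain C57BL/6J with no altered allele, and each nucleus was cut out by laser microdissection. The methods give 2 mice, and the labels do not tie an array to a mouse, so each p-value measured only the spread between these samples. The dissected nuclei held neurons, glia, and vessels together, so a higher signal can mean more cells of a type or more RNA per cell, which cannot be told apart.

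The VMH is a compact nucleus of mostly glutamatergic neurons, known for its part in energy expenditure, glucose counterregulation, defensive behavior, and female sexual behavior. Its neurons are marked by Nr5a1, the orphan nuclear receptor also called SF-1, which is needed for the nucleus to form. The LH is a larger and more mixed area crossed by the fibers of the medial forebrain bundle, and it holds the neurons that make orexin (from Hcrt) or melanin-concentrating hormone (from Pmch), known for wakefulness and feeding, among many GABA neurons.

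Values are signal intensities of single probes, divided by a factor from the 75th percentile of each array. A probe was tested when the VMH pair or the LH pair of arrays measured it, which means that the scanner software called it well above background on both, and 27141 probes met this. Over these, the median difference between replicates was 0.26 on the log2 scale in the VMH and 0.36 in the LH. The defining markers of each nucleus matched its label. Nr5a1 had 12163 and 11694 in the VMH against 650 and 211 in the LH. Hcrt ran the other way, with 684 and 275 in the VMH and 105972 and 116750 in the LH. Hcrt was also at 55940 and 51283 in the DMH, which borders the orexin field. The 14 markers of all neurons gave no call in either direction, with a median difference of 0.11, and the 7 probes of Gapdh, a glycolytic enzyme used as a reference, lay between -0.34 and 0.11.

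At an adjusted p under 0.05 in limma, 215 probes were higher in the VMH (0.792% of those tested) and 284 were higher in the LH (1.05%), which made 499 calls (1.84%), 43.1% of them on the VMH side. They carried 149 and 207 gene names. Without the scaling between arrays, the counts were 992 and 465, or 68.1% of calls higher in the VMH, and the median difference of all probes moved from 0.02 to 0.13. The other nucleus was not well above background on either array for 121 of the VMH probes and 117 of the LH probes, and for these the least possible fold is given. Where 1 of its arrays measured a probe, the fitted difference takes in an array not well above background and is not exact, and for most of those called and named below the value after normexp background correction is given too. Over the other 94 and 167 probes, the differences spanned 1.61 to 5.09 with a median of 2.27 in the VMH direction and 1.6 to 8.0 with a median of 2.33 in the LH direction, on the log2 scale. Of the VMH probes, 164 had both VMH arrays above every Arc and DMH array, and 200 of the LH probes had both LH arrays above every Arc and DMH array. Every called probe already had its nucleus above the other. Of 6666 tested probes with the VMH arrays above the LH arrays, 2344 also had them above every Arc and DMH array. For the LH these counts were 7104 and 3532. Of all tested probes, 8.64% had both VMH arrays above the other 6 arrays and 13% had both LH arrays above them. With all 8 arrays in the fit the counts were 723 and 986, and by the brightest probe of each gene that fit called 2.98% of genes higher in the VMH and 4.88% higher in the LH. They fell to 0 and 0 when either VMH array was left out of the fit of 4 arrays, where 1182 and 1063 probes without VMH1, and 1380 and 1404 without VMH2, had an unadjusted p under 0.05. Without LH1 they were 1308 and 772, and without LH2 1185 and 946. No called probe changed sign in any of these fits. The arrays of each called probe did not overlap between the nuclei, so leaving out 1 array could not turn its sign.

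**Figure D1:**
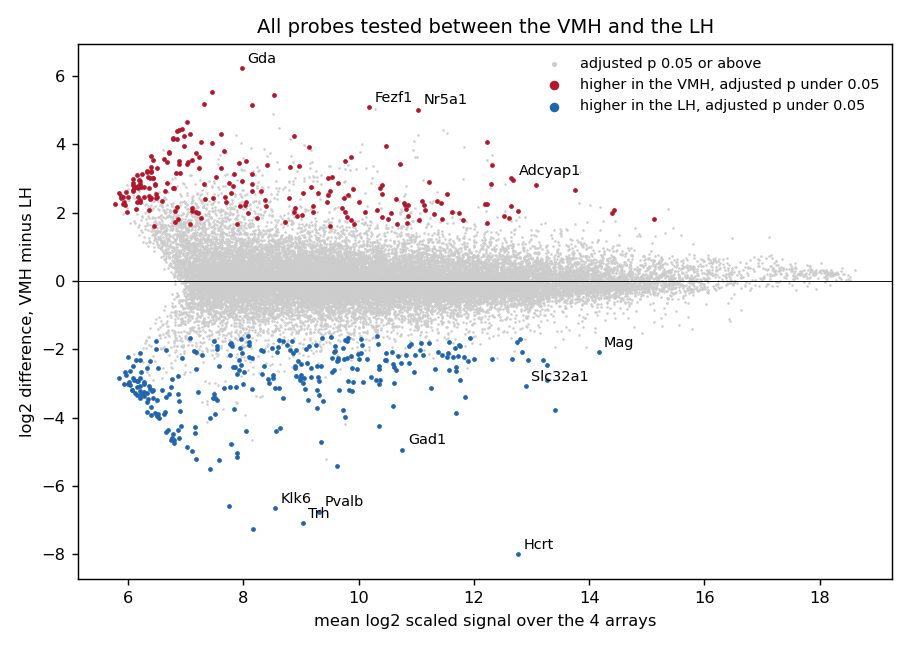
Each point is 1 of the 27141 probes tested, with its mean log2 scaled signal over the 4 arrays on the x axis and its log2 difference, VMH minus LH, on the y axis. The 215 red and 284 blue points passed an adjusted p of 0.05, and many of them lie on the left, where 1 of the nuclei was not well above background.

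The transcription factors of the VMH gave some of the sharpest differences. Nr5a1, given above, differed by 5.01 on the log2 scale (SE 0.56, adjusted p = 0.0301). Fezf1, a zinc finger factor needed for VMH neurons to develop, had 7587 and 5982 in the VMH. Its signal in the LH was 315 on LH2 and not well above background on LH1. The difference was 5.09 (SE 0.49, adjusted p = 0.0255; 3.92 with normexp), and the 4 arrays of the Arc and DMH did not measure it. Nr0b1, the nuclear receptor DAX1 that acts as a corepressor of Nr5a1, had 957.5 and 958.1 in the VMH. It was not well above background in the LH, where the mean was 26.4, and the VMH exceeded it at least 9.36-fold (adjusted p = 0.0107). Sox14, a SOX family repressor, had 563 and 762 in the VMH and was at least 6.40-fold higher there (LH mean 26.0, adjusted p = 0.0127). For each of these genes the VMH arrays lay above the LH arrays without overlap, as 24.6% of all tested probes did, while 26.2% lay the other way.

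**Figure D2:**
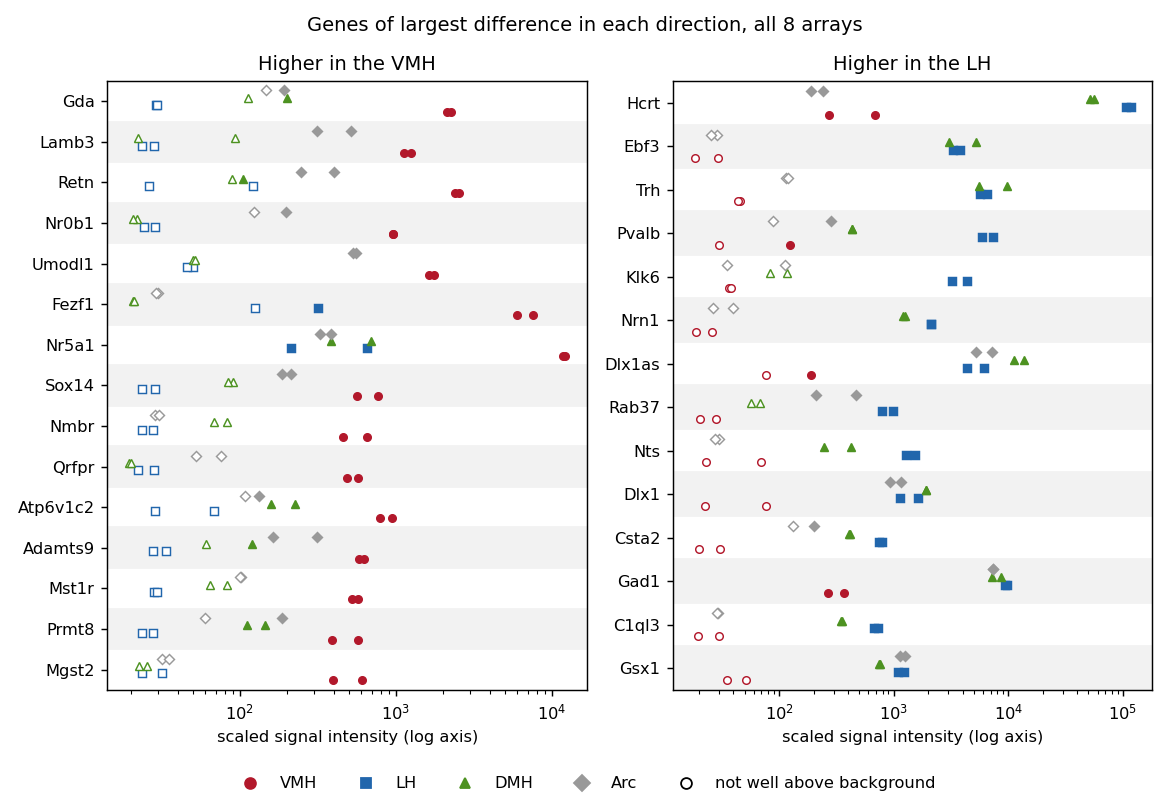
Scaled signal (x axis, log) of the genes with the largest called difference in each direction, 15 higher in the VMH and 14 higher in the LH, 1 row a gene, with 2 points for each of the 4 nuclei and open symbols where the array was not well above background. Genes are ordered by the fitted difference, and this order has no meaning among genes that the other nucleus did not measure. The VMH stands above the Arc, DMH, and LH for all 15 genes on the left, whereas on the right the DMH or the Arc often lies near the LH and the VMH is the low nucleus.

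Of 21 VMH identity genes, all were measured. By the brightest probe of each, 10 were higher in the VMH and 0 were higher in the LH, against 1.02% and 1.4% of the 12606 genes tested (2.41% in either direction). Their median difference was 1.67, where that of all genes was -0.06. The lists here and below were chosen with earlier results of these data known, so these shares are not independent of the data. Besides the factors above, the 10 held secreted peptides, receptors, and an enzyme. Gda, the guanine deaminase of purine breakdown, had 21279 and 18260 in the VMH and 1137 and 1210 in the LH by its brighter probe, a difference of 4.07 (SE 0.24, adjusted p = 0.0127). Its dimmer probe had 2238 and 2123 in the VMH, no signal above background in the LH (mean 29.2), and was at least 21.3-fold higher. Adcyap1, the precursor of the neuropeptide PACAP, had 17586 and 18972 in the VMH against 2143 and 2607 in the LH, a difference of 2.95 (SE 0.25, adjusted p = 0.0211). The Arc and DMH were as low as the LH for Adcyap1, between 637 and 2821. Bdnf, a neurotrophin whose loss in this region is known to cause overeating, had 1730 and 1735 against 590 and 498, a smaller difference of 1.68 that passed narrowly (adjusted p = 0.0488). It did not pass with the quantile scaling, without the filter on dim probes, or with all 8 arrays in the fit. Gpr149, an orphan receptor, had 527 and 534 in the VMH and was at least 5.18-fold higher there (LH mean 39.5, adjusted p = 0.0127).

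The other 11 VMH identity genes did not pass. Slc17a6, the vesicular glutamate transporter VGLUT2 of VMH neurons, had 8341 and 10588 against 5101 and 3912, a difference of 1.07 (SE 0.28, adjusted p = 0.158) with no overlap. The receptors of estrogen and leptin, well known from this nucleus, were dim. Esr1 had 620 and 316 in the VMH and was measured at 226 on LH1 only (difference 1.81, adjusted p = 0.262), while the Arc held 5000 and 3474. Lepr had 191 and 254 against a measured 145 on LH1 (difference 1.22, adjusted p = 0.286). Both rested on single LH arrays, since the difference was 2.66 without LH1 and 0.97 without LH2 for Esr1, and 1.83 and 0.60 for Lepr. The fits without LH1 called both, but with 1 LH array the spread came from the VMH pair alone. Pgr, the progesterone receptor, had 3493 and 3196 against 1843 and 2092 (difference 0.77, adjusted p = 0.215). Dlk1, a Notch-related ligand, went the other way. Its brighter probe had 8627 and 7558 in the VMH against 24273 and 38968 in the LH (difference -1.93, adjusted p = 0.0649, and 0.00896 with all 8 arrays in the fit), and its dimmer probe had 1281 and 1506 against 9255 and 6793 (difference -2.51, adjusted p = 0.0301). Nptx2, a pentraxin that gathers AMPA receptors, had a called dimmer probe (1.78, adjusted p = 0.0468) and a brighter one that missed the threshold (1.54, adjusted p = 0.121) and passed with all 8 arrays in the fit (0.0294).

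The genes at the head of the VMH direction also held several that are less known from this nucleus. Lamb3, a laminin chain of basement membranes, had 1241 and 1130 in the VMH, was at least 11.6-fold higher there (LH mean 25.8, adjusted p = 0.0107), and was at 310 and 516 in the Arc. Retn, the hormone resistin, had 2517 and 2379 and was at least 23.9-fold higher (LH mean 73.2, adjusted p = 0.0431), a call that was lost with the quantile scaling. Umodl1, a protein related to uromodulin, had 1759 and 1619 and was at least 16.5-fold higher (LH mean 47.9, adjusted p = 0.0107). These genes had their next highest signal in the Arc, where Umodl1 was at 554 and 531, and the DMH lay near or below background. The rest of the 15 were Nmbr and Qrfpr, given with the receptors below, and Atp6v1c2 (a proton pump subunit), Adamts9 (a metalloprotease of the extracellular matrix), Mst1r (a receptor tyrosine kinase), Prmt8 (an arginine methyltransferase of neurons), and Mgst2 (a microsomal glutathione transferase). Their LH arrays were not well above background, and their least possible folds lay between 4.61 for Prmt8 and 8.47 for Atp6v1c2, and Mgst2 did not pass with normexp.

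Nr5a1 marks the VMH, and this family of receptors binds the letters CAAGGTCA as a monomer. These letters were searched on both strands in the 250 bases before the start of each gene (RefSeq, GRCm38.p6). Of 121 genes higher in the VMH with a promoter in that table, 2 held the letters (1.65%), and of 151 genes higher in the LH, 3 did (1.99%), where 1.34% of 10062 tested genes and 1.51% of 27025 genes of the table held them. The share in both directions was thus near that of all genes, and the VMH genes named above that the table holds, such as Fezf1, Nr0b1, Gda, Sox14, and Adcyap1, were without them. The 250 bases before the start are shown for both VMH genes and 2 of the LH genes with a match, with the matched letters or their complement in capitals, because they let the position of the match be compared. The match lay 172 bases before the start in Hipk4 and 250 in Chia1, against 108 in Gjb1, 167 in Syt2, and 42 in Prcd, the other LH gene with a match, and all 5 genes lie on the plus strand.
Hipk4 (chr7:27523011-27523260, plus strand): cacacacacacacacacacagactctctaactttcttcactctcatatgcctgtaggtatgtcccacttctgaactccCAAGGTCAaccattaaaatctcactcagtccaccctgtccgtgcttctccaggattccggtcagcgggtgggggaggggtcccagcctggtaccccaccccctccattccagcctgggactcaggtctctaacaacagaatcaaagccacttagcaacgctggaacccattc
Chia1 (chr3:106113132-106113381, plus strand): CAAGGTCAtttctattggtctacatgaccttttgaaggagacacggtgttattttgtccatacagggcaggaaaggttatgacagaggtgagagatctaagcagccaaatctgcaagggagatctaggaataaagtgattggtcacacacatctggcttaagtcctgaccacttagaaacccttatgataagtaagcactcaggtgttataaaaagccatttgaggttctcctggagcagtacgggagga
Gjb1 (chrX:101381868-101382117, plus strand): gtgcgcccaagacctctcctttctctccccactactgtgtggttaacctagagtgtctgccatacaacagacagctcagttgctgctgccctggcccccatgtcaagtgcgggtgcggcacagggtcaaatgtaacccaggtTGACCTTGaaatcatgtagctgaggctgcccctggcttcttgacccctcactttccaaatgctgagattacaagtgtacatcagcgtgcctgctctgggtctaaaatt
Syt2 (chr1:134646362-134646611, plus strand): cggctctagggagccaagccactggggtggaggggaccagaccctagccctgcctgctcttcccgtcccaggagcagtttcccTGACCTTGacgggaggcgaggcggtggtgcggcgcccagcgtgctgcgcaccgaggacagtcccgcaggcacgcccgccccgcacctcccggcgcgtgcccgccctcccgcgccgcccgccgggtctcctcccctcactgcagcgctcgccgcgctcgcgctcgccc
Hipk4, a kinase of the homeodomain-interacting family, differed by 2.62 (adjusted p = 0.0469) and did not pass with the quantile scaling, and Chia1, a chitinase, was at least 1.78-fold higher in the VMH (VMH mean 183, LH mean 27.0, adjusted p = 0.0241). Chia1 did not pass with normexp background correction, with dim signals raised to the lowest signal measured, or with a trend in the fit. Gjb1 and Syt2 are described with the myelin and synaptic genes below.

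In the LH direction the largest difference was that of Hcrt, at -8.00 (SE 0.47, adjusted p = 0.0127). Of 18 LH identity genes 15 were tested, and 8 were higher in the LH and 0 in the VMH (1.4% and 1.02% of all genes). Their median was -2.30, where that of all genes was -0.06. Pmch, the precursor of melanin-concentrating hormone, had 3938 and 3140 in the VMH against 17650 and 17005 in the LH (difference -2.30, SE 0.25, adjusted p = 0.0301). Cartpt, the precursor of the CART peptides, had 4463 and 3989 against 19288 and 27917 (-2.46, SE 0.29, adjusted p = 0.0327). Nts, the neurotensin precursor, had 1291 and 1542 in the LH and was at least 13.6-fold higher there (VMH mean 46.0, adjusted p = 0.0296). Th, the rate-limiting enzyme of dopamine synthesis, had 3900 and 3242 against 13167 and 17263 (-2.08, SE 0.27, adjusted p = 0.0421). These genes were not all highest in the LH. Cartpt was at 43102 and 44665 in the Arc and Th at 31311 and 34984, whereas Pmch was at 16253 and 11631 in the DMH and not well above background in the Arc.

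Trh, the precursor of thyrotropin-releasing hormone, had the largest least possible fold of the called probes that the VMH did not measure. It had 6519 and 5690 in the LH and was at least 58.6-fold higher there (VMH mean 44.7, adjusted p = 0.0107), with 5586 and 9818 in the DMH. Tac2, the neurokinin B precursor, had 3522 and 3101 in the LH against 131 on VMH2, the VMH array that measured it (-4.70, SE 0.24, adjusted p = 0.0127, and -3.21 with normexp). Pnoc, the nociceptin precursor, had 765 and 804 against 166 and 116 (-2.50, SE 0.28, adjusted p = 0.0308). Over 28 neuropeptide precursors tested of 40, 2 were higher in the VMH and 7 in the LH (1.02% and 1.4% of all genes). Their median was -1.47, where that of all genes was -0.06, and 24 of 28 differences were on the LH side. With all 8 arrays in the fit the counts were 2 and 12 (2.98% and 4.88% of all genes). The pair higher in the VMH was Adcyap1 and Pomc, the precursor of melanocortins and endorphin. Pomc had 4049 and 3865 in the VMH against 1003 and 1299 in the LH (1.79, SE 0.26, adjusted p = 0.0487) and 40403 and 43108 in the Arc. It did not pass with the quantile scaling or without the filter on dim probes. The other 6 tested markers of arcuate neurons gave no call, all 6 lay on the LH side, and with all 8 arrays in the fit 2 of them passed in the LH direction. Ghrh, the precursor of growth hormone-releasing hormone, had 349 and 209 in the VMH against 780 and 1168 in the LH (-1.82, adjusted p = 0.1). Agrp had 406 and 398 in the VMH against 397 and 581 in the LH, and Kiss1 had 287 and 194 against 300 and 281 by its brighter probe. The part of arcuate tissue in the Pomc signal was not tested.

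Some peptides differed more between the LH arrays than between the nuclei. Gal, the galanin precursor, had 656 on LH1 and 13551 on LH2, against 1147 and 528 in the VMH (adjusted p = 0.541). Its difference was -4.12 without LH1 and 0.25 without LH2. Avp, the vasopressin precursor, had 279 and 2432 in the LH (difference -4.02 without LH1 and -0.90 without LH2), and Sst, the somatostatin precursor, 5052 and 12817. Tbr1, a transcription factor of glutamatergic neurons, was uneven as well, with 1556 and 8724. Crh, the corticotropin-releasing hormone precursor and a marker of the paraventricular nucleus, was steadier at 4931 and 3623 in the LH against 265 on VMH1 and an unmeasured VMH2. Its difference of -5.21 (SE 0.80, and -3.73 with normexp) missed the threshold at an adjusted p of 0.055 and passed with all 8 arrays in the fit (0.00754). Genes known from the DMH were also uneven in the LH. Npvf was at 406 on LH1 and 438 on VMH1 and not well above background on LH2 or VMH2, and Grp at 376 and not well above background, so neither was tested. Array LH2 correlated more with DMH2 over all tested probes (r = 0.955) than with LH1 (r = 0.939).

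Genes of GABA neurons were called on the LH side, and the genes of glutamate neurons gave no call. Gad1, which makes most of the GABA of neurons, had 372 and 266 in the VMH against 9704 and 9450 in the LH (-4.93, SE 0.28, adjusted p = 0.0127). Gad2, the other glutamate decarboxylase, had 1382 and 923 against 12680 and 11227 (-3.40, SE 0.30, adjusted p = 0.0224). Slc32a1, the transporter that loads GABA into vesicles, had 3306 and 2084 against 17842 and 27479 (-3.08, SE 0.37, adjusted p = 0.0335). The VMH was the low nucleus for each of these genes, since the Arc and DMH lay between 6277 and 10205 for Gad1 and Gad2 and between 16094 and 18672 for Slc32a1. The factors that specify GABA neurons followed. Dlx1 had 1620 and 1141 in the LH and was at least 13.1-fold higher there (VMH mean 49.9, adjusted p = 0.0361). Dlx6 was at least 2.90-fold higher (367 and 247, VMH mean 28.2, adjusted p = 0.0301) and did not pass with dim signals raised. Dlx5 had 498 and 519 against 142 on VMH2, the only VMH array to measure it (-1.77, adjusted p = 0.0431), and did not pass without scaling, with normexp (-0.92), without the filter on dim probes, or with a trend. Dlx2, with 402 and 503 in the LH and neither VMH array above background, missed the threshold (adjusted p = 0.0543) and passed with all 8 arrays in the fit (0.00707). Dlx1as, antisense to Dlx1, had 6139 and 4348 against 191 on VMH1 (-5.42, adjusted p = 0.0246, and -4.06 with normexp). The strand of the amplified product is not given in the sources used here, so Dlx1 and Dlx1as cannot be told apart.

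**Figure D3:**
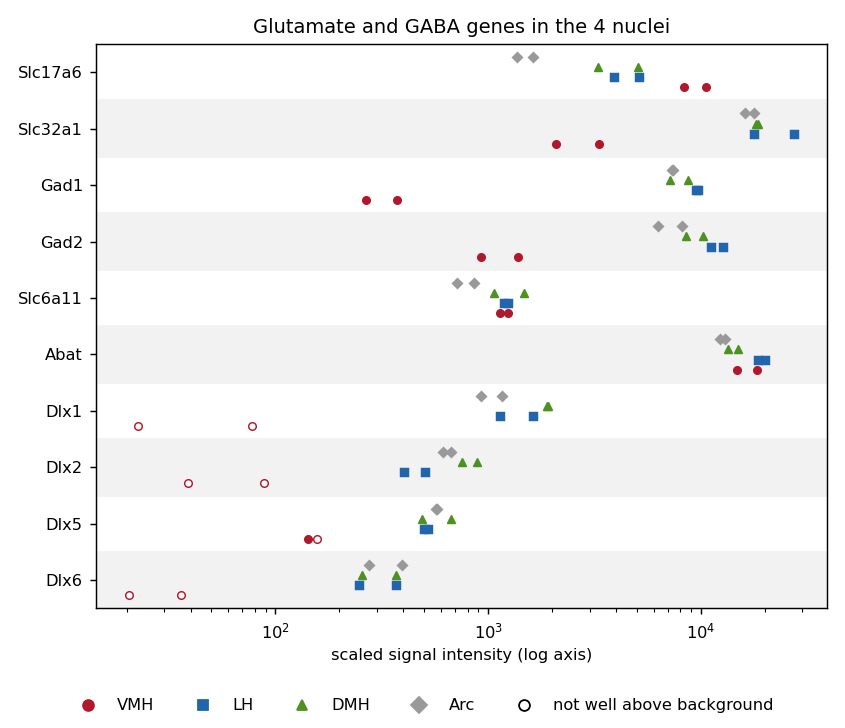
Scaled signal (x axis, log) of 10 of the 13 tested genes of glutamate and GABA transmission, 1 row a gene, with 2 points for each nucleus and open symbols where the array was not well above background. For Gad1, Gad2, Slc32a1, and the Dlx genes the VMH stands apart to the left of the other 3 nuclei, and for Slc17a6 it stands to the right.

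Of the 13 tested genes of this list, 7 were higher in the LH and 0 in the VMH (1.4% and 1.02% of all genes). Their median was -2.94, or -1.77 with dim signals raised to the lowest signal measured. The genes without a call included Slc17a6, Dlx2, and Abat, which breaks down GABA. Slc17a7 and Slc17a8, the other vesicular glutamate transporters, were not well above background in either nucleus.

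Hypothalamic transcription factors gave calls in both directions. Of 38 tested, 4 were higher in the VMH (Nr5a1, Fezf1, and Sox14 among them) and 12 in the LH, against 1.02% and 1.4% of all genes. Their median was -1.08. Ebf3, an early B-cell family factor, had the largest least possible fold of these factors in the LH direction. It had 3287 and 3818 in the LH, 3043 and 5175 in the DMH, and no signal above background in the VMH or the Arc, and the LH was at least 34.1-fold above the VMH (VMH mean 23.7, adjusted p = 0.0107). Its relative Ebf1 had 1248 and 1131 against 181 and 265 (-2.44, SE 0.29, adjusted p = 0.0338). The LIM factor Lhx1 had 608 and 657 in the LH and was at least 6.08-fold higher (VMH mean 32.5, adjusted p = 0.0127), and the forkhead factor Foxp2 had 431 and 286 and was at least 3.38-fold higher (VMH mean 24.5, adjusted p = 0.0246), though it did not pass with dim signals raised. Zic1, a zinc finger factor of early neural tissue, had 2361 and 2133 against 155 and 190 (-3.71, SE 0.25, adjusted p = 0.0144). Hmx2 and Hmx3, homeobox factors of the ventral hypothalamus, differed by -4.29 and -3.17. Hmx3 had 1489 and 1746 against 249 and 130 (adjusted p = 0.0338), and Hmx2 had 2202 and 1401 against 164 on VMH1 (adjusted p = 0.0489, and -2.72 with normexp) and did not pass with the quantile scaling. Onecut2, Pou3f1, Otp, Pbx3, and Foxb1 completed the 12, with differences from -1.65 for Foxb1 to -3.34 for Onecut2. Foxb1 and Pbx3 did not pass without scaling, with the quantile scaling, or without the filter on dim probes, and with all 8 arrays in the fit Foxb1 had an adjusted p of 0.0817. Gsx1, a homeobox factor outside this list that ranked among the 15 largest, had 1219 and 1091 in the LH, was at least 11.1-fold higher there (VMH mean 43.5, adjusted p = 0.0127), and was as high in the Arc at 1250 and 1128. Nkx2-1, which patterns the whole ventral hypothalamus, had 4902 and 2943 in the VMH against 973 and 939 in the LH, a difference of 1.99 that missed the threshold (adjusted p = 0.063) and passed with all 8 arrays in the fit (0.00896).

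Receptors of neuropeptides showed no common side. Of 31 tested, 4 were higher in the VMH and 3 in the LH (1.02% and 1.4% of all genes), with a median of 0.79 (0.50 with dim signals raised). With all 8 arrays in the fit the counts were 9 and 7 (2.98% and 4.88% of all genes). In the VMH direction, Nmbr, which binds neuromedin B, had 652 and 460 in the VMH and was at least 5.35-fold higher (LH mean 25.7, adjusted p = 0.0138). Qrfpr, the receptor of the RFamide peptide 26RFa, had 2846 and 1495 against 127 on LH1 by its brighter probe (4.26, SE 0.40, adjusted p = 0.0247). Sstr3, a somatostatin receptor of neuronal cilia, had 6253 and 6471 against 1306 and 1885 (2.02, adjusted p = 0.0466). Cckbr, a receptor of cholecystokinin, had 2790 and 3000 against 869 and 948 (1.67, adjusted p = 0.0468). It did not pass without the filter on dim probes, and its dimmer probe differed by 1.70 with an adjusted p of 0.0671.

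The other cholecystokinin receptor lay on the opposite side. Cckar had 758 and 651 in the LH and was at least 6.76-fold higher there (VMH mean 47.0, adjusted p = 0.0127), with 655 to 1363 in the Arc and DMH. Avpr1a, a vasopressin receptor, had 673 and 402 and was at least 5.01-fold higher (VMH mean 24.0, adjusted p = 0.0223), and Grpr, which binds gastrin-releasing peptide, had 342 and 293 and was at least 3.04-fold higher (VMH mean 37.5, adjusted p = 0.026). Grpr did not pass with normexp or with dim signals raised. Brs3, another receptor of the bombesin family, differed by -1.26 and gave no call (adjusted p = 0.0967). Hcrtr1, Mchr1, and Trhr, which bind peptides of the LH, gave no call in the fit of 4 arrays. The difference of Mchr1 was 2.32 without LH1 and 0.27 without LH2. The orexin receptor Hcrtr1 had 4169 and 3837 in the VMH against 1838 and 1689 in the LH (1.18, adjusted p = 0.0957, and 0.0411 with all 8 arrays in the fit), and Trhr had 1616 and 1073 against 4003 and 4736 (-1.73, adjusted p = 0.0747, and 0.0238 with all 8 arrays). Oxtr, the oxytocin receptor known for its part in the VMH in female sexual behavior, had 19893 and 15026 against 4400 and 6458 (1.70, SE 0.31, adjusted p = 0.0823) and passed with all 8 arrays in the fit (0.0207).

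Among 18 receptors of metabolic hormones and steroids, 1 was higher in each direction, against 1.02% and 1.4% of all genes, and the median was 0.57. Thrb, a thyroid hormone receptor, had 1271 and 1127 in the VMH against 291 and 293 in the LH (2.03, SE 0.24, adjusted p = 0.0327). Calcr, through which calcitonin and amylin act, had 244 and 139 against 1156 and 1376 (-2.77, SE 0.35, adjusted p = 0.0385) and was higher still in the Arc at 4312 and 3608. Sirt1, a deacetylase of metabolic regulation, had 1299 and 483 in the VMH against 638 and 560 in the LH (0.41, adjusted p = 0.721), so its VMH arrays spread around those of the LH.

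Secreted organizers of synapses were called in both directions, 2 in the VMH and 3 in the LH of 14 tested (1.02% and 1.4% of all genes). Their median was -0.64. C1ql2, of the complement-like C1q family, had 1615 and 2829 in the VMH against 315 and 212 in the LH (3.05, SE 0.39, adjusted p = 0.0384), whereas C1ql3 had 731 and 679 in the LH and was at least 6.78-fold higher there (VMH mean 24.8, adjusted p = 0.0127). Cbln2, a cerebellin that bridges neurexins, had 1424 and 1146 against 11251 and 8030 (-2.90, SE 0.29, adjusted p = 0.0262), and Cbln1 had 18430 and 18611 against 8562 and 10475 (0.97, adjusted p = 0.152). Nptx1, a pentraxin, had 345 and 429 in the VMH and was at least 3.76-fold higher (LH mean 28.5, adjusted p = 0.0141). Nrn1, which promotes the growth of neurites, had 2099 and 2135 in the LH and was at least 20.4-fold higher there (VMH mean 22.4, adjusted p = 0.0107), with 1208 and 1245 in the DMH. Among the 15 largest LH differences were also Rab37, a small GTPase of vesicle transport with 989 and 791 in the LH (at least 8.51-fold higher, VMH mean 24.2, adjusted p = 0.0127), and Csta2, a protease inhibitor of the stefin family with 792 and 750 (at least 7.42-fold higher, VMH mean 25.3, adjusted p = 0.0127).

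Pvalb, the calcium buffer of fast-spiking neurons, had 5855 and 7396 in the LH, against 125 on VMH2 and an unmeasured VMH1 (-6.75, SE 0.69, adjusted p = 0.0264; -4.39 with normexp). The Arc and DMH reached at most 430, so Pvalb was high in the LH alone among the 4 nuclei. Its dimmer probe had 600 and 545 in the LH, and neither VMH array measured it. Of 20 genes of fast-spiking and large projection neurons, 3 were higher in the LH and 0 in the VMH (1.4% and 1.02% of all genes). Their median was -0.92. Besides Pvalb the 3 were Scn4b, a sodium channel subunit for resurgent current, with 281 and 323 against 2965 and 2558 (-3.19, SE 0.25, adjusted p = 0.0178), and Syt2, a fast calcium sensor of release, with 338 and 622 against 4750 and 2870 (-3.01, SE 0.42, adjusted p = 0.0466). Syt2 did not pass with the quantile scaling. Kcnc2, a potassium channel subunit of these neurons, was at 236 and 231 in the LH with neither VMH array above background and missed the threshold (adjusted p = 0.0525, and 0.0318 with all 8 arrays in the fit). Among 12 calcium-binding proteins, 2 were higher in the LH and 0 in the VMH (1.4% and 1.02% of all genes). The call beside Pvalb was S100a10, which carries membrane proteins to the surface, with 741 and 636 against 3047 and 2883 (-2.11, SE 0.24, adjusted p = 0.0318).

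Markers of myelinating oligodendrocytes were higher in the LH as a group. Of 29 measured, 14 passed in the LH direction and 0 in the VMH direction (1.4% and 1.02% of all genes). All 29 differences were below 0, and the median was -2.21. With all 8 arrays in the fit, 23 passed, where 4.88% of all genes did. Klk6, a protease of mature oligodendrocytes and 1 of the 15 largest differences, had 3247 and 4339 in the LH and was at least 36.1-fold higher there (VMH mean 37.6, adjusted p = 0.0107), with no Arc or DMH array above background. Mag, an adhesion protein of the inner myelin layer, had 8167 and 9730 against 37108 and 38409 (-2.08, SE 0.24, adjusted p = 0.0327). Ermn, a cytoskeletal protein of the myelin sheath, had 664 and 932 against 4281 and 5881 (-2.67, SE 0.31, adjusted p = 0.0327), and Fa2h, which makes the hydroxylated lipids of myelin, had 629 and 673 against 3362 and 4165 (-2.52, SE 0.25, adjusted p = 0.026). The gap junction gene Gjb1 differed by -2.21 (1793 and 1604 against 6261 and 9829, adjusted p = 0.0466). Mbp, a main protein of compact myelin, did not pass. It had 10838 and 16302 against 28908 and 29585 by its brightest probe (-1.14, adjusted p = 0.155), while its 2 dimmer probes lay at 0.83 and 1.1, on the VMH side. Mobp, Ermn, Trf, and Tspan2 also had a dimmer probe with a different call.

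**Figure D4:**
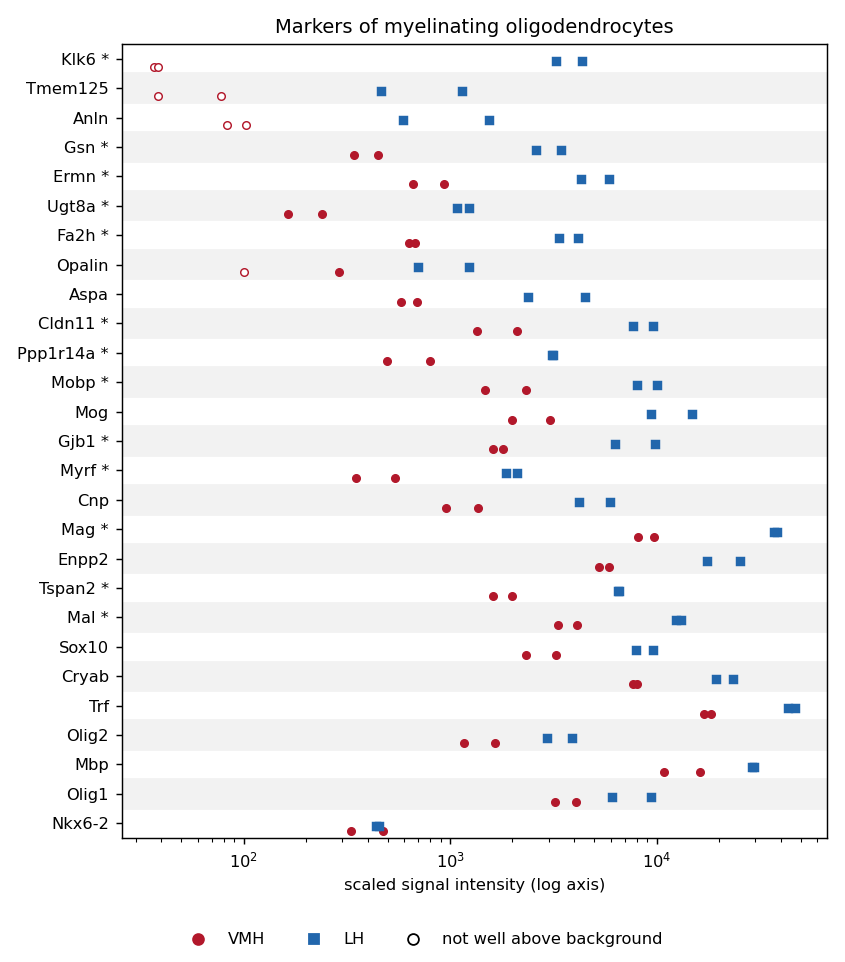
Scaled signal (x axis, log) of 27 of the 29 markers of myelinating oligodendrocytes, ordered by their log2 difference, with 2 points for the VMH (red) and 2 for the LH (blue) in each row, open where not well above background, and an asterisk on the 13 of them that passed an adjusted p of 0.05. The LH points lie to the right of the VMH points in every row except the last, Nkx6-2, where they overlap.

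The summed signal of these 29 genes was 83997 and 93561 in the VMH and 267580 and 302051 in the LH. Markers of astrocytes, microglia, and vessels gave no call. Of 18 astrocyte, 15 microglia, and 16 endothelial and mural markers, 0 passed in either direction, where 2.41% of all genes did. Their medians were -0.38, -0.35, and -0.87, against -0.06 over all genes, and 16, 13, and 15 of them lay on the LH side. Gfap, the intermediate filament of astrocytes, had 1228 and 1284 against 2412 and 3109 (-1.13, adjusted p = 0.124), and Cldn5, of the tight junctions of vessels, had 998 and 1454 against 2389 and 2534 (-1.03, adjusted p = 0.175). With all 8 arrays in the fit, 2 endothelial and mural markers and 0 astrocyte or microglia markers passed in the LH direction, where 4.88% of all genes did. Of 8 precursor markers tested, Enpp6, of newly formed oligodendrocytes, was the 1 that passed (225 and 148 in the LH, at least 1.75-fold higher, VMH mean 23.0, adjusted p = 0.0318), and it did not pass with dim signals raised or with a trend. Of 7 ependymal and tanycyte markers tested, Crym, a thyroid hormone-binding crystallin, was the 1 that passed, with 1020 and 883 in the VMH against 216 and 293 in the LH (1.92, adjusted p = 0.0487), and it did not pass with the quantile scaling. The part of the glial markers in the neuronal differences was not tested. Drd2, the dopamine receptor used here as a marker of striatal tissue, was the only call among 10 tested markers of the thalamus, zona incerta, subthalamic nucleus, striatum, or amygdala, with 288 and 303 against 1986 and 1767 (-2.67, SE 0.24, adjusted p = 0.0234).

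**Figure D5:**
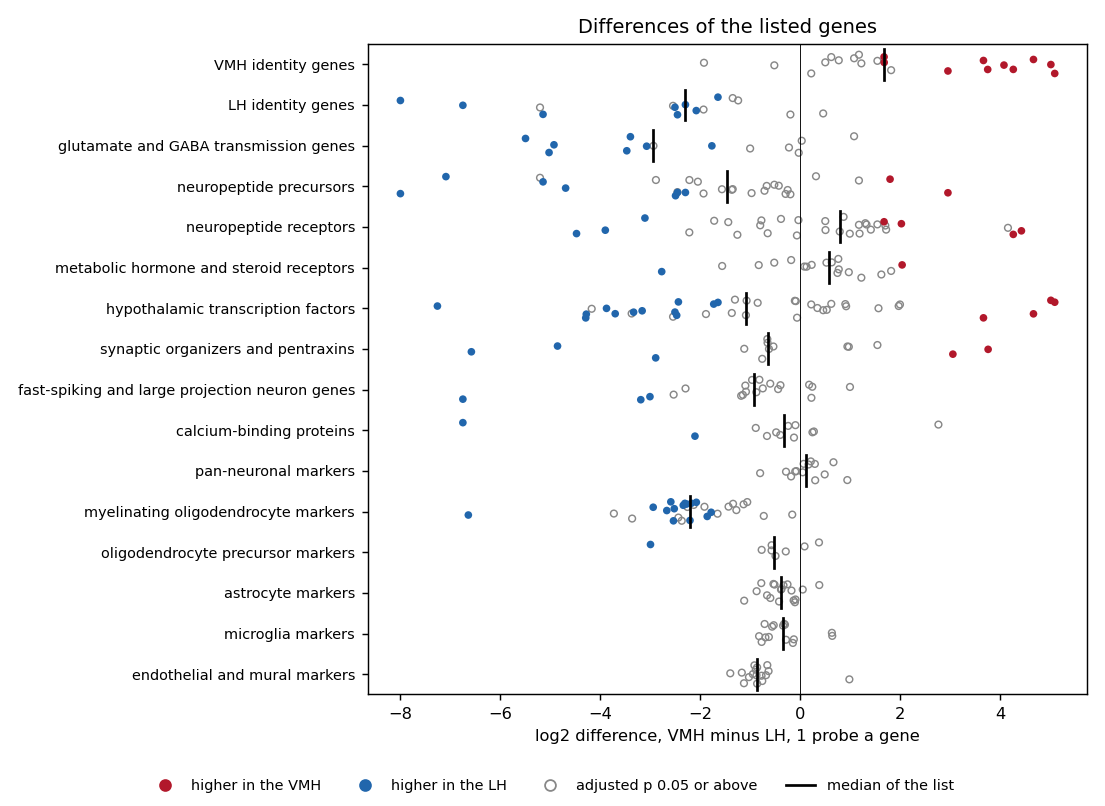
Log2 difference, VMH minus LH, of the genes of 16 lists, 1 point a gene by its brightest probe, filled where it passed an adjusted p of 0.05, with the median of each list as a black bar. VMH identity genes lie to the right and LH identity, GABA, and myelin genes to the left, whereas the pan-neuronal markers sit around 0 with a median of 0.11.

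By the size of the ratio alone, without a test, 55 probes (0.203%) had a mean at least 10 times higher in the VMH than in the LH and 80 (0.295%) the reverse. They carried 39 and 61 gene names, and 47 and 67 of them also passed limma. The signal of the other nucleus was not well above background for 39 and 57 of these probes. Among probes measured on all 4 arrays the counts were 8 and 14, and they were 16 and 35 when each dim signal was set to the lowest signal that its array measured.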

How the data were processed

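Total RNA of microdissected nuclei was amplified, labelled, and hybridized to 1-color Agilent mouse arrays, all 8 on 1 slide, on which the replicate number equals the row. The authors extracted intensities with Agilent Feature Extraction (11.5.1.1 per the labels and 10.7.3.1 per the file headers). The deposited processed signal is an intensity after background subtraction and detrending, with a floor for the lowest signals, which makes dim probes look alike, and no scaling was applied between arrays. The dye is Cy3 in the labels and Cy5 in the methods, and red-channel columns were deposited. A deposited table holds these signals as whole numbers, and 99.7% to 99.8% of its probes lay within 0.51 of the mean scanner signal kept here on each array.

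Here, outlier spots and controls were left out, spots of a probe averaged, and each array divided by its 75th percentile (829 and 1239 in the VMH, 1033 and 853 in the LH before scaling, with no saturated spot). Log2 values of the 4 arrays were fitted with limma 3.58.1 (R 4.3.3, default eBayes, 2 residual and 3.15 prior degrees of freedom) with Benjamini-Hochberg adjustment over the 27141 probes. An exact permutation of 2 against 2 arrays cannot reach 0.05. A probe was well above background on an array if called so on at least as many spots as not. A gene in a list count is its brightest probe, and 119 tested probes, none of them called, missed a value on 1 array. A least possible fold sets the mean of the higher nucleus against the lowest signal measured on the other arrays. Names came from the RefSeq accessions of GRCm38.p6, for 26762 of 28390 probes with an accession. Named genes were the 15 of largest called difference in each direction, the genes the study names, and members of the lists. Some genes that met these rules are not reported here, though list counts include them. The members and lists were chosen with earlier results of these data known. The number of arrays and the signal over background limit the precision. The alternatives were no scaling, quantile scaling, normexp, the deposited table, other filters, kept outlier spots, raised dim signals, a replicate block, all 8 arrays, a trend, the methods' t-test, other rules for the ratio, and leaving out each array.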

Additional observations from a re-analysis of the deposited data

How the results depend on the processing

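With 2 arrays a side, the counts of calls moved with the processing. The numbers of probes higher in the VMH and in the LH (215 and 284 here) were 992 and 465 without scaling, 307 and 475 with normexp, 368 and 400 without the filter on dim probes, 723 and 986 with all 8 arrays in one fit, 306 and 452 with a trend, and 393 and 562 with a robust trend. The methods' t-test gave 1434 and 2005 unadjusted and 0 and 0 after Benjamini-Hochberg adjustment, where limma called 215 and 284. Leaving out 1 array gave counts from 0 to 1308 in the VMH direction and from 0 to 946 in the LH direction, with 0 without either VMH array. In the fit of all nuclei, chosen after seeing the data, leaving out 1 array gave 222 and 207 without VMH1, 232 and 370 without VMH2, 1166 and 905 without LH1, and 1520 and 1227 without LH2. The replicate number was not taken to pair the arrays (correlation of deviations -0.02 between VMH and LH, and 0.040 to 0.28 between the other pairs of nuclei). As a block it gave 213 and 259 calls, of which 157 and 213 were shared with the fit without it, and 807 and 913 with all 8 arrays.

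Probes at least 10-fold higher (55 and 80) were 4 and 14 with normexp, 8 and 14 when measured on all 4 arrays, 16 and 35 with dim signals raised, 90 and 85 by the geometric mean, 28 and 48 by the lowest against the highest array, 227 and 246 at a minimum of 5, and 11 and 32 at 20. Leaving out 1 array gave 66 to 313 and 87 to 117.

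Of 122 genes followed, the 94 that passed kept their sign under every setting. For called probes, whose arrays did not overlap between the nuclei, leaving out 1 array could not turn the sign. Of the 94, 69 passed in each setting that kept both arrays of each nucleus and tested them (36 of the 50 tested in 13 such settings and 33 of the 44 tested in 12). With the replicate number as a block on 4 arrays, 15 of the 94 did not pass, namely Bdnf, Cckbr, Crym, Dlx5, Foxb1, Gabra5, Gjb1, Hipk4, Pbx3, Plekhh1, Pomc, Sstr3, Syt2, Th, and Tspan2. Genes that turned had not passed. Gapdh turned to 0.087 without scaling and 0.065 with normexp, and leaving out 1 array gave it -0.18 to 0.13. Leaving out 1 array gave Agrp -0.53 to 0.020, Gal -4.12 to 0.25, Sst -0.87 to 0.47, Sirt1 -0.31 to 1.12, and Nkx6-2 -0.42 to 0.090. The cause of these shifts was not tested.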

Other observations

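The genes of this section lie outside the lists and were chosen after their values were seen. Among bright genes higher in the VMH, Lbhd2 had 22296 and 23527 in the VMH against 3320 and 3226 in the LH, with the Arc and DMH between 1729 and 2147. Myh7, a myosin heavy chain better known from heart and slow muscle, had 18257 and 18211 against 2181 and 2323 (log2 difference 3.02, SE 0.23, adjusted p = 0.0174). Ptk2b, a calcium-activated tyrosine kinase, was called by both of its probes, at 3.96 and 3.43. Itpka, a kinase of inositol trisphosphate in dendritic spines, had 804 and 814 in the VMH and was at least 7.58-fold higher (LH mean 74.5, adjusted p = 0.018), and Rgs14, a regulator of G protein signalling, had 1610 and 1594 against 150 and 159. Icam5, an adhesion molecule of forebrain dendrites, had 10489 and 9930 against 2332 and 1989. Receptor genes in this direction included Chrm5 (muscarinic acetylcholine, at least 4.59-fold, adjusted p = 0.0476), Glra3 (glycine, 3.13), and Gabra5 (GABA, 1.88). The difference of Glra3, which was not well above background on all 4 arrays, was 1.75 in the setting that made it smallest. Chrm5 did not pass with the quantile scaling or normexp, and Gabra5 did not pass with the quantile scaling.

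In the LH direction, Asb4, a ubiquitin ligase adaptor, had 1007 and 748 in the VMH against 12557 and 12730 in the LH by its brighter probe (-3.86, SE 0.27, adjusted p = 0.0144), and the Arc and DMH were higher than the LH, at 16027 to 25394. Ngfr, the low-affinity neurotrophin receptor, had 215 and 227 against 2490 and 4799, and again the VMH was the low nucleus, with 2392 to 6158 in the Arc and DMH. Htr2c, a serotonin receptor with a known part in feeding, was called by 2 of its 3 probes, at -2.97 and -2.58, while the third lay at -1.27 (adjusted p = 0.122). Hapln2 (-2.82), S1pr5 (-2.94), and Plekhh1 (-1.96) were called on the LH side as well, and Plekhh1 did not pass with the quantile scaling. The guidance genes Slit3 and Unc5b stood on opposite sides, Slit3 with 1925 and 2410 in the VMH against 376 and 373 in the LH, and Unc5b with 385 and 343 against 1549 and 1957.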
